A study of Mus musculus with 24 samples.

Results

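The p53 target genes described here are genes that the transcription factor p53 is known to switch on. A list of 10 was used: Cdkn1a, Ccng1, Sesn2, Perp, Phlda3, Trp53inp1, Eda2r, Bax, Mdm2 and Zmat3. The names were matched to the gene symbols of the array without regard to case, and 9 of the 10, among 17741 named genes, had a probe. Each of the 9 had 1 probe. Bax was not analysed here, and neither was Trp53, the gene of p53 itself.

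RNA came from primary bone marrow cells of C57BL/6 mice. Per the labels' protocol the mice were given tamoxifen so that Bap1 was deleted throughout the body. Bap1 encodes a nuclear deubiquitinase that removes ubiquitin from histone H2A. The 4 groups were LSK cells, which lack lineage markers, carry Sca1 and Kit and are rich in blood stem cells, from mice labelled BAP1 WT (mice 1 and 3) or BAP1 KO (mice 2 and 4), and myeloid progenitors, which carry Kit but neither lineage markers nor Sca1, from BAP1 WT (mice 5 and 6) or BAP1 KO (mice 7 and 8). Each mouse gave 3 one-colour arrays of 1 population. The labels do not give the Cre driver, the age or the time after tamoxifen, nor do they say whether the WT mice carried a Cre or received tamoxifen too.

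In unstressed cells p53 is kept low by the ubiquitin ligase Mdm2, which is itself a p53 target, so the pathway limits itself. DNA damage, oncogene activity or failing ribosome synthesis stabilises p53, which then binds pairs of short half-sites near its targets. Some targets stop the cell cycle, others promote cell death or repair, and others feed back on p53. In blood stem cells p53 is known for its part in quiescence and in the loss of damaged cells.

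Of the 10 listed genes, 7 had a promoter window in the RefSeq table of the mouse assembly GRCm38.p6, with 8 windows in all, since Cdkn1a had 2 start sites. Zmat3, Perp and Trp53inp1 had none there. A window held the 250 bases before and the 50 bases after the annotated start. The p53 half-site consensus, a palindrome of 10 bases that reads the same on both strands, was found in 4 of the 8 windows, against 8.36% of 32851 windows of the same length. In the upstream window of Cdkn1a, 2 half-sites began 73 and 51 bases before the start. The second was followed directly by TGACATGTTC, which matches the consensus at 9 of 10 bases. A half-site next to 10 bases with at least 9 matches was found in 0.0883% of all windows and in 2 of these 8, those of Cdkn1a and Ccng1. A match of letters is a description of the window and does not show that p53 binds there. The 250 bases before the start are given for genes that rose in KO cells (Cdkn1a, Phlda3, Eda2r) and for Mdm2 and Ccng1, which did not pass. The windows of Sesn2, which did not pass either, and of the other Cdkn1a start held no half-site and are not printed. That of Bax held 1 and is not printed. Bases read 5′ to 3′ on the gene's strand, with half-sites in capitals.
Cdkn1a, chr17:29090729-29090978, plus strand: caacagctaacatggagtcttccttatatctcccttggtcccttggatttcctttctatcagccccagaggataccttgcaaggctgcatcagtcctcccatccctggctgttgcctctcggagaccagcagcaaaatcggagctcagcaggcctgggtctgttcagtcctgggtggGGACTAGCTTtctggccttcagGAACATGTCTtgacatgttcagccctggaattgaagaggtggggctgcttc
Phlda3, chr1:135765835-135766084, plus strand: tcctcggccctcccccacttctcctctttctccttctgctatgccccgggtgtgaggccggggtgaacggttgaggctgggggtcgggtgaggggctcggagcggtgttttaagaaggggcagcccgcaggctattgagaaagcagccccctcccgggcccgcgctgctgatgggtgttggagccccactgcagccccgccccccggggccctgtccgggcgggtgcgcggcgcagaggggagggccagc
Eda2r, chrX:97377210-97377459, minus strand: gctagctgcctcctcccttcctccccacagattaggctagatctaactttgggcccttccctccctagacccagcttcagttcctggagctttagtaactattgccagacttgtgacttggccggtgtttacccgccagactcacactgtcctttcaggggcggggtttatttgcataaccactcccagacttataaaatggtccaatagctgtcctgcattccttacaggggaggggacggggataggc
Mdm2, chr10:117710759-117711008, minus strand: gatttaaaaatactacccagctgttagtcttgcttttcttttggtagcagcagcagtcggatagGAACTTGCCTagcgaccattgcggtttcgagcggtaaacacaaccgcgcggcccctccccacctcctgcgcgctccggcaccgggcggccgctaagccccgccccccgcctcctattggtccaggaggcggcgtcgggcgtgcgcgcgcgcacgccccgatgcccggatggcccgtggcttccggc
Ccng1, chr11:40755287-40755536, minus strand: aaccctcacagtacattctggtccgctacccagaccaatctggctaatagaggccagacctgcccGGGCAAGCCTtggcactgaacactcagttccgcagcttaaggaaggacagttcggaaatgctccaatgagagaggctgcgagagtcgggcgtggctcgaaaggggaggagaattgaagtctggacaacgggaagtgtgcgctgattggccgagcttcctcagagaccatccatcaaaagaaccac

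Levels below are log2 expression values, given as the mean over the 3 arrays of a mouse, so 1 unit is a doubling. Changes are KO minus WT with the standard error (SE) from a limma fit over the 8 mouse means, with n = 2 mice per group. P-values are limma's, adjusted by Benjamini-Hochberg over all 22439 probes, and a gene is said to rise or fall where the adjusted p is under 0.05. Values were not compared between probes of different genes, since probes differ in brightness.

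The list was chosen with earlier results of these data known, so the shares beside the counts below are no test of the set. In KO LSK cells 3 of the 9 genes rose and 0 fell, against 1.74% of all genes higher and 2.90% lower by the same test. They were Cdkn1a, Perp and Zmat3. In KO myeloid progenitors 5 of 9 rose and 0 fell, against 0.908% of all genes higher and 1.74% lower. These were the same 3 genes with Phlda3 and Eda2r. The count in myeloid progenitors was 3 without mouse 6 (0.366% of all genes higher in that fit) and 3 without mouse 8 (0.496%), with Cdkn1a and Eda2r not called in either. Over the mean of both populations, those 5 rose and 0 fell, against 3.09% and 4.85% of all genes. The median change of the 9 genes was 0.43 in LSK cells and 0.97 in myeloid progenitors, where the median over all genes was 0.02 and 0.00. Both KO mice lay above both WT mice for 6 of 9 genes in LSK cells (25.7% of all genes) and below them for 1 (20.9% of all genes). In myeloid progenitors both KO mice lay above for 8 of 9 (20.3% of all genes) and below for 0 (20.8% of all genes).

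**Figure D1:**
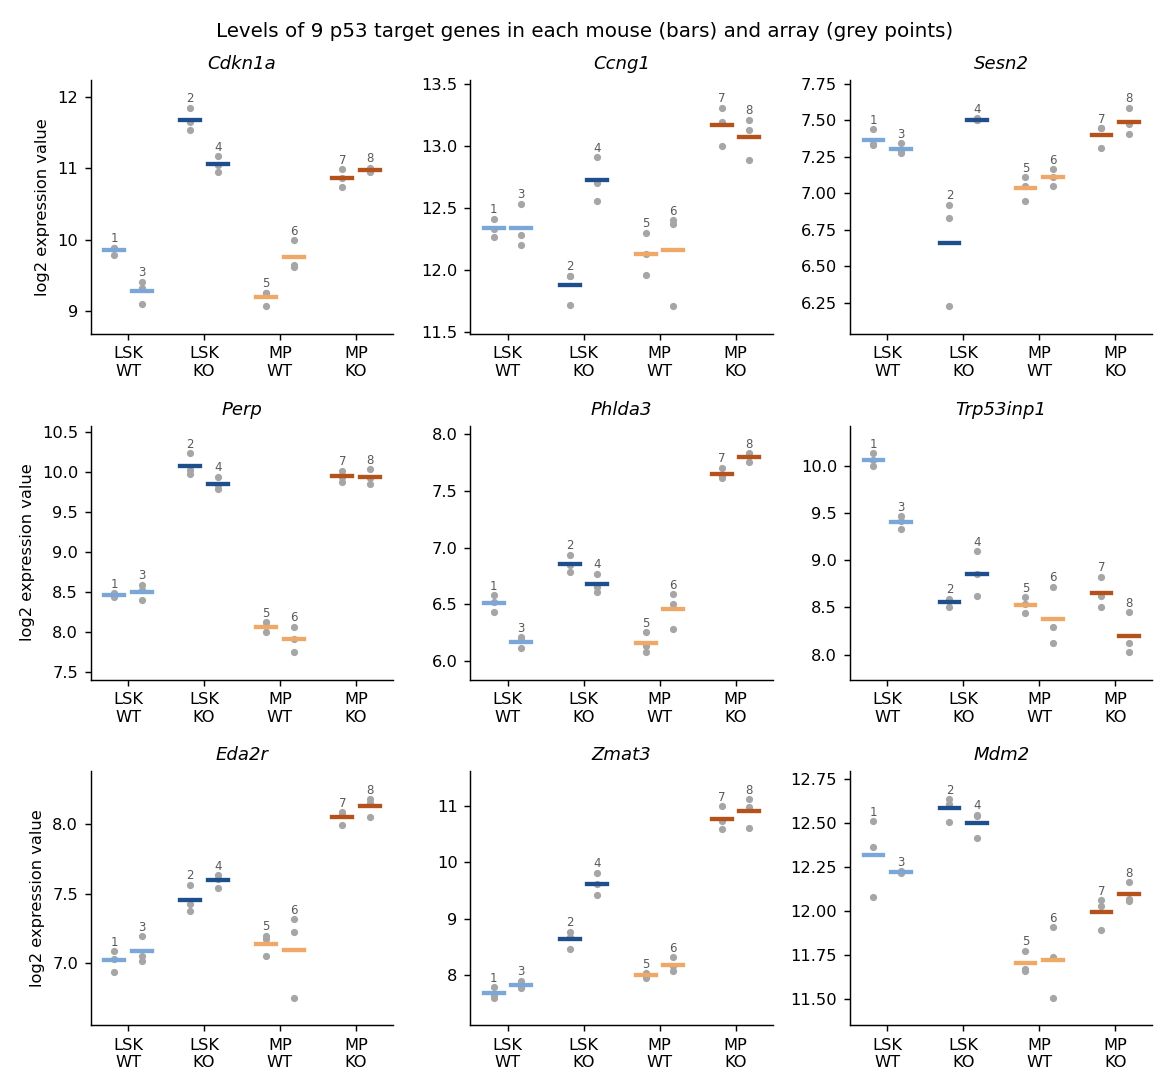
Log2 expression value (vertical axis, with its own range in each panel) of the 9 p53 target genes in each mouse. Coloured bars are mouse means, grey points the 3 arrays of the mouse, and the small digit is the mouse number. For Cdkn1a, Perp, Zmat3, Phlda3, Eda2r and Mdm2 both KO mice lie above both WT mice in LSK cells and in myeloid progenitors (MP). For Trp53inp1 both KO LSK mice lie below both WT LSK mice, with a limma adjusted p of 0.0568.

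Among the genes that act on the cell cycle and growth, Cdkn1a encodes p21, an inhibitor of cyclin-dependent kinases that is the best known arrest gene of p53. Its level was 9.85 and 9.27 in the WT LSK mice and 11.68 and 11.06 in the KO LSK mice. The myeloid progenitor mice were at 9.19 and 9.75 in WT and 10.86 and 10.98 in KO. All KO mice thus lay above all WT mice, whichever population they came from. Cdkn1a rose by 1.81 ± 0.29 (SE) in LSK cells, a 3.51-fold change (adjusted p = 0.00597), and by 1.45 ± 0.29, 2.73-fold, in myeloid progenitors (adjusted p = 0.0257). The call in myeloid progenitors was lost in 7 of 18 alternatives, whereas the call in LSK cells was kept in all 18. It was lost without mouse 5, 6, 7 or 8, at changes from 1.17 to 1.73. It was also lost without mice 1 and 5 together, and with the level of the Y-linked gene Kdm5d as a covariate. The same held with limma's eBayes run without trend and robust options. The difference between the populations, 0.36 ± 0.41, did not pass (adjusted p = 0.923, 95% interval -0.55 to 1.27).

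Ccng1 encodes cyclin G1, which works with a phosphatase on Mdm2. It measured 12.34 in both WT LSK mice, with KO LSK mice at 11.88 and 12.73, one below and one above. Myeloid progenitor mice measured 12.13 and 12.16 in WT and 13.17 and 13.08 in KO, so the groups did not overlap. The change was -0.04 ± 0.25 in LSK cells (adjusted p = 0.966) and 0.97 ± 0.25 in myeloid progenitors (adjusted p = 0.0784), and neither passed. Ccng1 passed in myeloid progenitors under 6 of 18 alternatives, 1 of them the fit on that population alone.

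Sesn2 encodes sestrin 2, a stress protein that restrains the growth kinase mTORC1. It was at 7.37 and 7.30 in WT LSK mice and at 6.66 and 7.50 in KO LSK mice, which lay on either side of WT. In myeloid progenitors the values were 7.04 and 7.11 in WT and 7.40 and 7.49 in KO. The changes of -0.25 ± 0.23 and 0.37 ± 0.23 did not pass (adjusted p = 0.681 and 0.683).

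Among the genes of cell death, Perp encodes a membrane protein of cell junctions that p53 induces during apoptosis. Its level was 8.47 and 8.51 in WT LSK mice and 10.08 and 9.86 in KO LSK mice. In myeloid progenitors it was 8.07 and 7.91 in WT against 9.95 and 9.94 in KO. The spread between mice of a group, at most 0.23, was small beside the gap between WT and KO. Perp rose by 1.48 ± 0.20 in LSK cells, 2.79-fold (adjusted p = 0.00241), and by 1.96 ± 0.20 in myeloid progenitors, 3.88-fold (adjusted p = 0.000695). It passed in both populations under all 18 alternatives, with an adjusted p of at most 0.0374 and 0.0117.

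Phlda3 encodes a small protein that binds membrane lipids and holds back the kinase Akt. It was at 6.51 and 6.17 in WT LSK mice and at 6.86 and 6.68 in KO LSK mice. In myeloid progenitors it was 6.16 and 6.46 in WT and 7.65 and 7.80 in KO, the highest values of any group. The WT means lay close to the bottom of the scale, where the 25th percentile of each array was 6.15 to 6.18, so no fold is given and the log2 differences may understate the change. On that measured scale Phlda3 rose by 1.41 ± 0.16 in myeloid progenitors (adjusted p = 0.000966). In LSK cells its change of 0.43 ± 0.16 did not pass (adjusted p = 0.190). The LSK change minus that of myeloid progenitors was -0.99 ± 0.22 with a 95% interval from -1.48 to -0.50 and an unadjusted p of 0.000961, but it did not pass over all probes (adjusted p = 0.194). With both WT groups near the bottom of the scale, it is no bound in either direction.

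Eda2r encodes a receptor of the TNF receptor family that binds an ectodysplasin ligand. It was at 7.02 and 7.09 in WT LSK mice and at 7.46 and 7.60 in KO LSK mice. Among myeloid progenitors the values were 7.14 and 7.10 in WT and 8.05 and 8.13 in KO. It rose in myeloid progenitors by 0.97 ± 0.15, 1.96-fold (adjusted p = 0.00685). That call was lost without mouse 6 (0.95, adjusted p = 0.0527), without mouse 8 (0.93, adjusted p = 0.0638) and without mice 1 and 5 together (0.99, adjusted p = 0.0693). In LSK cells the change was 0.47 ± 0.15 (adjusted p = 0.125).

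Trp53inp1 encodes a nuclear protein that promotes p53 phosphorylation and autophagy. It was at 10.06 and 9.40 in WT LSK mice, above every other mouse, and at 8.56 and 8.85 in KO LSK mice. In myeloid progenitors it was 8.53 and 8.38 in WT and 8.65 and 8.20 in KO, and these groups overlapped. The change in LSK cells was -1.02 ± 0.26 and just missed the threshold (adjusted p = 0.0568). It passed under 5 of 18 alternatives, among them the fit without mouse 3 and both filters on dim probes. In myeloid progenitors the change was -0.03 ± 0.26 (adjusted p = 0.996).

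Of the feedback and RNA-binding genes, Mdm2 encodes the ubiquitin ligase that marks p53 for degradation. It was at 12.32 and 12.22 in WT LSK mice and at 12.58 and 12.50 in KO LSK mice. In myeloid progenitors it was 11.70 and 11.72 in WT and 11.99 and 12.09 in KO. The KO mice lay above the WT mice in both populations. The changes of 0.27 ± 0.17 and 0.33 ± 0.17 did not pass (adjusted p = 0.521 and 0.565), and their 95% intervals ran from -0.11 to 0.66 and from -0.05 to 0.72.

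Zmat3 encodes a zinc finger protein that binds RNA and acts on splicing. It was at 7.67 and 7.81 in WT LSK mice and at 8.64 and 9.61 in KO LSK mice. The myeloid progenitor mice lay at 7.99 and 8.18 in WT and 10.78 and 10.91 in KO. Zmat3 rose by 2.76 ± 0.29 in myeloid progenitors, 6.76-fold (adjusted p = 0.000833), which was the largest change among the 9 genes and rank 3 from the top among all genes. In LSK cells it rose by 1.38 ± 0.29, 2.61-fold (adjusted p = 0.0226). That LSK call was lost in 7 of 18 alternatives, among them the fits without mouse 1, 3 or 4, at changes of 0.89 to 1.87 over all alternatives and an adjusted p of up to 0.219. The LSK change minus that of myeloid progenitors was -1.37 ± 0.41 and did not pass (unadjusted p = 0.00637, adjusted p = 0.434). Without KO mouse 4 it was -1.86 and passed.

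**Figure D2:**
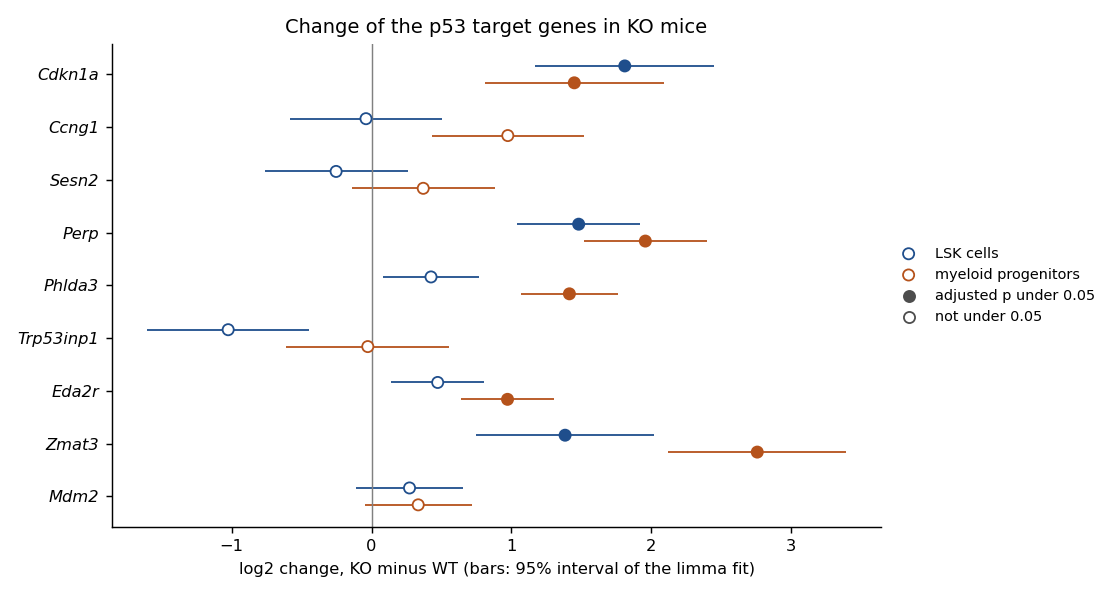
Log2 change, KO minus WT (horizontal axis), of each p53 target gene in LSK cells (blue) and in myeloid progenitors (orange). Points are the limma estimates from 2 mice per group, bars their 95% intervals, and filled points have an adjusted p under 0.05. Cdkn1a, Perp and Zmat3 are filled in both populations, Phlda3 and Eda2r in myeloid progenitors alone.

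When the KO effects of the populations were tested against each other, limma called 0 of the 9 genes, against 0.0620% of all genes, and 5 of the 9 had an unadjusted p under 0.05 (Phlda3, Zmat3, Ccng1, Trp53inp1 and Eda2r), against 6.35% of all genes. For 8 of 9 genes, all but Cdkn1a, the LSK change was the lower one, with a median difference of -0.62, where that of all genes was 0.01. With the arrays of a mouse fitted singly and the mouse as a random block, 2 of 9 passed, Zmat3 and Phlda3, against 2.56% of all genes in that fit. It applied the same correlation between arrays of a mouse, 0.442, to every gene. It can thus overstate precision for genes whose mice differ more. For Zmat3 the SD of arrays within a mouse was 0.16, while KO LSK mice 2 and 4 differed by 0.98. Without KO mouse 4, 2 of 9 passed as well, Zmat3 and Ccng1, against 0.659% of all genes.

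The KO LSK mice 2 and 4 differed from each other in several of these genes. Mouse 4 was higher by 0.98 in Zmat3, by 0.85 in Ccng1 and by 0.84 in Sesn2, whereas mouse 2 was higher by 0.62 in Cdkn1a. The arrays of the pair did not overlap for these 4 genes, nor for Perp, Phlda3 and Trp53inp1. How often this holds over all genes was not computed. Other pairs showed it too. The arrays were apart for Cdkn1a, Phlda3 and Trp53inp1 between the WT LSK mice. They were apart for Cdkn1a, Zmat3 and Phlda3 between the WT myeloid progenitor mice, and for Phlda3 and Trp53inp1 between the KO ones. In this pair, a gap as large as that of Zmat3 was seen in 1.85% of all genes. The share was 3.2% for Ccng1, 3.26% for Sesn2 and 7.9% for Cdkn1a. Between KO myeloid progenitor mice 7 and 8 the largest gap among the 9 genes was 0.45, in Trp53inp1. WT pairs differed as well. WT LSK mice 1 and 3 were apart by 0.66 in Trp53inp1 and by 0.575 in Cdkn1a, gaps reached by 2.91% and 4.40% of all genes. WT myeloid progenitor mice 5 and 6 were apart by 0.56 in Cdkn1a (8.24% of all genes).

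The WT mice alone gave the order of the populations. Of the 9 genes, Trp53inp1 was higher in LSK cells than in myeloid progenitors by 1.28 ± 0.26, 2.42-fold (adjusted p = 0.00944), against 13.5% of all genes called in either direction. That call was lost without mouse 1 (adjusted p = 0.0912), without mouse 6 (adjusted p = 0.0604) and without mice 1 and 5 together (adjusted p = 0.175). The other 8 did not pass. For Mdm2 the difference was 0.56 ± 0.17 (adjusted p = 0.0607) and for Perp 0.50 ± 0.20 (adjusted p = 0.137). Zmat3, Cdkn1a, Phlda3, Eda2r, Ccng1 and Sesn2 lay between -0.35 and 0.26.

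Further p53 targets were taken from a list of 59 genes, also chosen with earlier results of these data known. Of these, 56 were measured. In LSK cells 3 of the 56 rose (5.36%, against 1.74% of all genes) and 1 fell (1.79%, against 2.90%). In myeloid progenitors 2 rose (3.57%, against 0.908%) and 0 fell. Their median change was 0.02 in LSK cells and 0.11 in myeloid progenitors. In LSK cells both KO mice lay above both WT mice for 14 of the 56 (25.7% of all genes) and below for 13 (20.9% of all genes). In myeloid progenitors they lay above for 23 (20.3% of all genes) and below for 9 (20.8% of all genes). Ddit4, an inhibitor of mTORC1, measured 11.59 and 11.08 in WT LSK mice and 12.81 and 12.26 in KO. It rose by 1.20 ± 0.26 in LSK cells (adjusted p = 0.0276) and by 1.13 ± 0.26 in myeloid progenitors (adjusted p = 0.0497). Cpt1c, a carnitine palmitoyltransferase of the brain type, rose in LSK cells by 1.56 ± 0.22 (adjusted p = 0.00314). Sfn, the 14-3-3 sigma protein of mitotic arrest, rose in LSK cells by 0.96 ± 0.22 (adjusted p = 0.0319), with 0.89 ± 0.22 in myeloid progenitors (adjusted p = 0.0640). Rad51c, a recombination repair gene, fell in LSK cells by 1.30 on the log2 scale (SE 0.28, adjusted p = 0.0248).

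**Figure D3:**
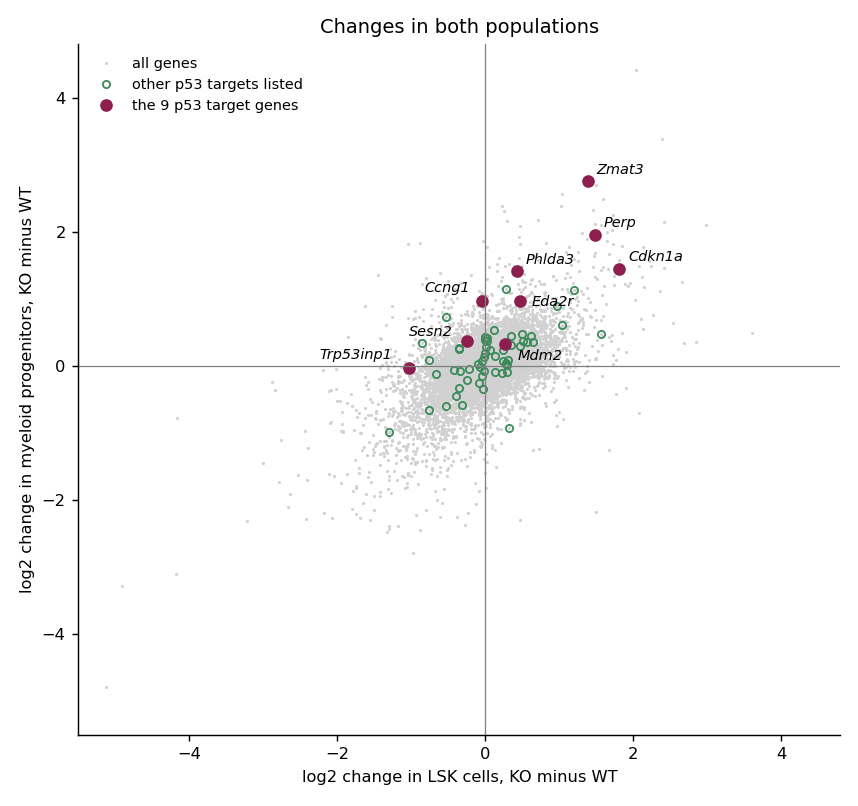
Log2 change, KO minus WT, in LSK cells (horizontal axis) and in myeloid progenitors (vertical axis) for all 17741 genes (grey), the other p53 targets listed (open green) and the 9 p53 target genes (filled). Cdkn1a, Perp and Zmat3 lie high on both axes, and the other p53 targets have medians of 0.02 and 0.11.

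Of 15 other p53 targets of the apoptosis list, 0 passed in LSK cells and 1, Bbc3, in myeloid progenitors. Bbc3, the BH3 protein PUMA, measured 9.20 and 9.02 in WT myeloid progenitor mice and 10.27 and 10.22 in KO. It rose there by 1.14 ± 0.21 (adjusted p = 0.0154), while in LSK cells its change was 0.28 ± 0.21 (adjusted p = 0.594). Its difference between the populations did not pass (-0.86 ± 0.29, adjusted p = 0.598). The probes of Pmaip1, the BH3 protein NOXA, and of the death receptor gene Fas stayed between 5.94 and 6.31 in every mouse, at the low end of the scale, and so bear little on either gene. The same held for Mdm4, the partner of Mdm2, at 5.99 to 6.22. Btg2, an antiproliferative gene, spanned 9.80 to 10.95 in WT LSK mice and 9.32 to 9.72 in KO LSK mice. It changed by -0.86 ± 0.56 (adjusted p = 0.559).

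Lists of genes around the pathway held few calls, which says little of lists this short, since 4.64% of all genes passed in LSK cells and 2.64% in myeloid progenitors. Of 15 measured p53 family genes and regulators, of 18 DNA damage signalling genes and of 6 CDK inhibitors, 0 passed in either population. Cdkn2a, whose ARF product restrains Mdm2, lay between 6.91 and 7.53 in all mice and changed by 0.15 ± 0.19 and 0.08 ± 0.19 (adjusted p = 0.782 and 0.968). Of 15 BCL2 family genes Bok, a pro-apoptotic member, rose in LSK cells by 1.03 ± 0.23 (adjusted p = 0.0311), and Bbc3 rose in myeloid progenitors as given above. Of 10 ligands and partners of death receptors, Traf1, a signalling adaptor, fell by 0.88 on the log2 scale in LSK cells (SE 0.14, adjusted p = 0.00522). Of 14 genes of the G1 to S step, the cyclin gene Ccnd1 rose in myeloid progenitors by 1.09 ± 0.25 (adjusted p = 0.0476), and of 18 mitotic genes 0 passed. Of 15 paralogs of the listed p53 targets, such as other sestrins, 0 passed in either population.

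**Figure D4:**
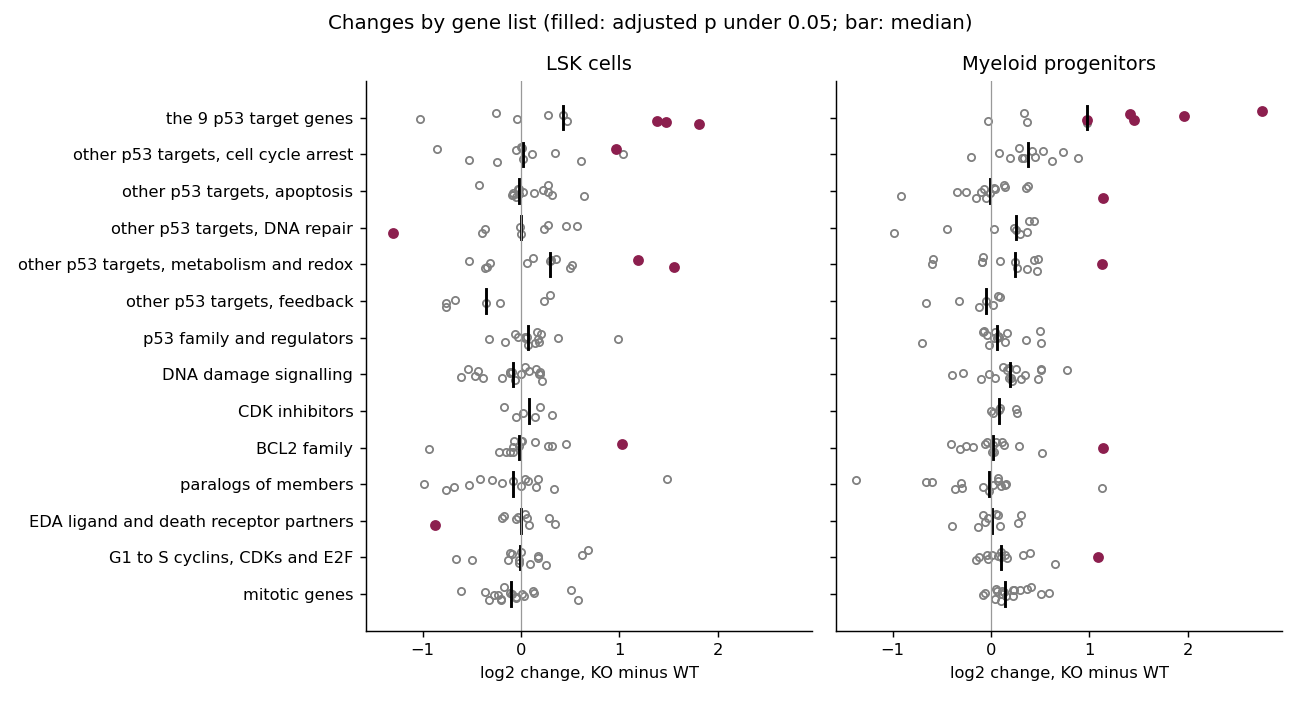
Log2 change, KO minus WT (horizontal axis), of each measured gene of 14 lists in LSK cells (left) and in myeloid progenitors (right). Filled points have an adjusted p under 0.05 and the black bar is the list's median, which for the 9 p53 target genes is 0.43 and 0.97.

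The genes whose pattern was most like that of a p53 target were named by the root mean square (RMS) difference of the 8 mouse means, each gene centred on its own mean, over 9550 genes brighter than the median probe. For Perp they were Chac1 (RMS 0.195), Col18a1 (0.199) and Fgf3 (0.247), where the median over all genes was 0.929. For Cdkn1a they were Klf9 (RMS 0.279), Fgf3 (0.287) and Spata48 (0.310), with a median of 0.922. Zmat3 had C2cd4a (RMS 0.358), Cth (0.378) and Erfe (0.456), with a median of 1.24, and Phlda3 had Slc27a3 (RMS 0.253), Klf5 (0.262) and Aqp9 (0.264), with a median of 0.641. Likeness here includes the WT to KO step that these genes share.

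Some markers of other cell types and of the sorted populations differed with genotype. In sorted cells analysed in bulk, more cells of a type cannot be told apart from more RNA per cell. In LSK cells the mean log2 level of 12 myeloid progenitor markers was 10.52 to 11.23 in WT and 11.19 to 11.70 in KO, with 3 rising and 1 falling. That of 10 stem-enriched markers was 10.95 to 11.33 in WT and 10.60 to 10.84 in KO, with 1 falling. Of 9 B cell markers the same 4 fell in LSK cells and in myeloid progenitors. They were Igll1 (-4.91 and -3.28), Vpreb1 (-4.19 and -3.11), Ebf1 (-2.04 and -1.64) and, near the low end of the scale, Ms4a1 (-0.60 and -0.43). The others did not pass. The mean level of the 9 was 9.06 to 9.13 in WT and 7.51 to 7.78 in KO LSK cells. In myeloid progenitors it was 8.68 to 8.93 in WT and 7.61 to 7.68 in KO. Of the 9, the defining marker Pax5 was at the low end of the scale in every mouse. Of 10 macrophage markers Cd68 (2.26, adjusted p = 0.0012) and Marco (1.39, adjusted p = 0.00149) rose in LSK cells, and Adgre1 fell in myeloid progenitors. Of 7 basophil and mast cell markers Mcpt8 rose in both populations (2.42 and 1.46) and Prss34 fell in both (-2.79 and -1.73). Of 8 megakaryocyte markers Gp5 rose in both (1.16 in LSK cells) and Pf4 fell in both (-1.21 and -1.23), and Gp1bb rose in myeloid progenitors (1.27). The erythroblast marker Epb42, 1 of 4, fell in both (-1.31 and -1.84). So did Emcn (-3.01 and -1.45), 1 of 8 genes of the stroma and endothelium list, of which the others did not pass. In WT mice Emcn was higher in LSK cells than in myeloid progenitors (2.69 ± 0.26, adjusted p = 0.000128), so it does not mark endothelium alone here. Of 7 T and NK cell markers 1 rose and 1 fell in LSK cells, and of 9 granulocyte markers 1 rose in myeloid progenitors. Among 3 markers of both progenitors, Cd34 fell in myeloid progenitors. The part of these markers in the changes of the p53 targets was not tested. The WT populations did differ as labelled, with 8 of 10 stem-enriched markers higher in LSK cells and 9 of 12 myeloid progenitor markers lower.

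The probe for Bap1 was not lower in KO mice: it changed by 0.40 ± 0.18 in LSK cells (adjusted p = 0.321) and by 0.20 ± 0.18 in myeloid progenitors (adjusted p = 0.843). Whether it lies in the deleted part is not stated in the labels or files, so it does not check the labels. A signal of the Y-linked gene Kdm5d was seen in mice 1 and 5, at 7.88 and 8.15, both WT, while the other 6 mice lay between 5.93 and 6.03. Without these mice, which leaves 1 WT mouse per population assumed to vary like the rest, 3 of the 9 p53 targets rose in myeloid progenitors, Zmat3, Perp and Phlda3, against 0.372% of all genes. In LSK cells without them Zmat3 lost its call and Cdkn1a and Perp kept theirs, against 0.530% of all genes.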

How the data were processed

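Total RNA was amplified by in vitro transcription, coupled to Cy5 and hybridised in one colour to 24 arrays, as the labels' protocols state. The deposited values are on the log2 scale and were processed by the authors. Limma is named, with no version, in the submitters' processing notes. When the values of each array were sorted, the arrays were within 0.0451 of each other throughout, which is how quantile-normalized arrays look. For the scanner, the background correction and spot filters, the method is not stated in the labels or files.

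Platform symbols were updated through RefSeq names of GRCm38.p6: 18213 of the 22439 probes matched by symbol and 2126 by synonym, 36 kept the array's name and 2064 had no symbol. A gene with several probes was represented by the brightest.

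The 3 arrays of a mouse were averaged. The 8 mouse means were fitted in limma 3.58.1 (R 4.3.3) with all 4 groups, using eBayes with trend and robust options, with 6.91 prior degrees of freedom (median) beside 4 residual ones. Two-sided p-values were adjusted by Benjamini-Hochberg over all probes and called at a threshold of 0.05. Precision is set by the number of mice.

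The p53 targets and the other gene lists were chosen with earlier results of these data known. All measured p53 targets were named, with Bap1, Mdm4, Cdkn2a, Bbc3, Pmaip1, Fas and Btg2, up to 4 called genes from each list of the pathway, and for Cdkn1a, Zmat3, Perp and Phlda3 the 3 genes most like them.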

Additional observations from a re-analysis of the deposited data

How the results depend on the processing

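The 9 p53 targets were recomputed under 18 alternatives, fewer where a contrast or gene did not allow one. Each target has 1 probe, so the alternatives with other probes could not be run. Of 787 values, 716 kept direction and side of the threshold, 20 lost and 38 gained a call, and 13 changed sign, none of these called. Perp and Cdkn1a in LSK cells, Zmat3, Perp and Phlda3 in myeloid progenitors, and all 5 calls of the mean of both populations were kept in every alternative run for them.

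With single arrays and the mouse as a random block, 6 targets were called in LSK cells in place of 3. For the mean of both populations 8 were called in place of 5. In both, Trp53inp1 fell and the other called targets rose. The difference between populations had 2 in place of 0, and the WT populations had 3 in place of 1. The counts were the same with the array number added as a replicate block. The random block fit also called more of all genes, 15.1% in LSK cells, 2.56% for the difference and 26.4% between the WT populations. For the mean of both populations it called 8.21% of all genes higher and 9.81% lower, against 3.09% and 4.85% in the main fit. The array number names arrays within a mouse and pairs no mice across groups. Leaving out 1 mouse gave 2 to 3 called targets in LSK cells, 3 to 6 in myeloid progenitors, 5 to 6 for the mean, 0 to 2 for the difference and 0 to 1 between the WT populations. The fits without mice 1 and 5, which carry a Kdm5d signal, are described above. The count between the WT populations was 3 with eBayes without trend and robust options, where 7.48% of all genes were higher and 5.49% lower. It was 2 with either filter on dim probes, which adjusts over fewer probes. Of the genes kept, the filter at the 25th percentile called 19.4% and that at the 50th called 26.4%. The cause of the other changes was not tested.

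The sign changes were these. Leaving out 1 mouse gave -0.46 to 0.38 for Ccng1 and -0.68 to 0.17 for Sesn2 in LSK cells, positive without mouse 2. It gave -0.25 to 0.20 for Trp53inp1 in myeloid progenitors, which was also 0.18 with the Kdm5d level as a covariate and 0.047 without the mice with that signal. It gave -0.15 to 0.27 for Sesn2 over both populations. Between the WT populations it gave -0.20 to 0.38 for Cdkn1a and -0.14 to 0.20 for Phlda3, which were -0.48 and -0.29 without the mice with a Kdm5d signal.

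Precision is limited by 2 mice per group. Probes near the low end of the scale (Phlda3 in WT, Fas, Pmaip1 and Mdm4) can hide changes.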
